A study of Mus musculus with 9 samples.

Results

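Knockdown of the linear Slc45a4 mRNA was compared with a scrambled control in cells of the embryonic mouse cortex. The comparison rests on 6 of the 9 libraries of the study, 3 of the Slc45a4 mRNA knockdown and 3 of the scramble control, and every gene that passed a filter on low counts entered it, 17760 in all. Short hairpin RNAs (shRNAs) were electroporated in utero into the cortex of C57BL/6 embryos at E13.5 (embryonic day), the tissue was collected at E15.5, and GFP+ cells were isolated by fluorescence-activated sorting before polyA-selected RNA was sequenced. The knockdown group received a mixture of 2 shRNAs against the Slc45a4 mRNA and the control group 1 scrambled sequence, and the effects of the 2 hairpins cannot be told apart. The remaining 3 libraries received 3 shRNAs against circSlc45a4, a circular RNA of the same locus. They were fitted together with the other 6, so they share the filter, the scaling and the estimate of the spread behind every adjusted p. Their own levels are given only in the direct comparison. A fit of only the 6 libraries called 1278 genes higher and 1525 lower, against 1585 and 1615 with all 9. The labels call the samples of a group biological replicates but do not say how many embryos were pooled, so p-values measure the spread between these samples.

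Slc45a4 encodes a member of the SLC45 family of proton-coupled solute carriers, which has been linked to polyamine and GABA metabolism. At this stage the apical progenitors (radial glia) that line the ventricle divide and give rise to basal progenitors and to neurons, which migrate outwards along the radial fibres into the cortical plate. Electroporation into the ventricle reaches the apical cells, and their daughters inherit the plasmid, so GFP+ cells sorted later hold progenitors and newborn neurons side by side.

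Total counts ranged from 35307378 to 37051161 in the knockdown and from 21073174 to 31833779 in scramble. The sorted cells carried cortical markers in all 6 libraries, with Emx1 between 70.9 and 103 CPM and Neurod6 between 1069 and 1290 CPM. CPM is a gene's count per 1000000 of its library's total, which was summed over the filtered genes and scaled by the TMM method. The first principal component of the 6 libraries (39.7% of the variance) separated all knockdown from all scramble libraries, with knockdown replicate 1 farthest out. Embryo sex differed between the libraries. Xist, which coats the inactive X chromosome of female cells, was read at 1550.0, 637 and 0.194 CPM in knockdown replicates 1 to 3 and at 0.239, 0.0648 and 0.0617 CPM in scramble, and the Y-linked gene Ddx3y at 0, 21.9 and 39.1 CPM against 41.5, 38.04 and 28.3 CPM. Knockdown replicate 1 thus carried Xist without Ddx3y, replicate 2 carried both, and replicate 3 had the pattern of the scramble libraries. Each call against scramble was also made with the Xist level as a covariate and with knockdown replicate 3 alone against scramble. A call that held in all 17 alternative settings, each library left out in turn and these 2 included, wherever the gene could be tested, is named a stable call here, and 631 of 3200 calls (19.7%) were stable. Xist is confounded in part with the knockdown, and what embryo sex contributed to the remaining calls was not tested. Of the 6 libraries only knockdown replicates 1 and 2 held much Xist, so the Xist covariate and replicate 3 alone are not independent checks. Their log2 fold changes were close for Ccnd3 (-1.53 and -1.54) and Acly (-1.02 and -1.04) and less so for Isg15 (1.55 and 2.01). Where 3 values are given for a group, they are replicates 1 to 3 in that order, and a value with ± is a log2 fold change of knockdown over scramble with its SE.

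Slc45a4 itself (chr15:73577424-73645762, minus strand, GRCm38) fell in every knockdown library. It was read at 13.2, 18.5 and 17.4 CPM in the knockdown and 31.4, 33.6 and 33.96 CPM in scramble, with no overlap between the groups. The log2 fold change was -1.01 ± 0.12 (standard error, SE, n = 3 per group), with an adjusted p of 1.08e-04 in edgeR's quasi-likelihood test. Replicate 1 had the lowest level. The call was stable, with adjusted p between 2.73e-13 and 0.0195 over the alternatives. Of the other measured members of the family, Slc45a1 was read at 8.01, 12.4 and 11.3 CPM in the knockdown and 10.8, 9.85 and 9.88 CPM in scramble (0.06 ± 0.16, adjusted p = 0.851), and Slc45a3 had a log2 fold change of 0.00 ± 0.39 (adjusted p = 0.995).

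Beyond the target, the response was broad and of small size. Of 17760 genes tested, 1585 rose (8.92%) and 1615 fell (9.09%) at an adjusted p under 0.05, 18% in all, while 5702 had an unadjusted p under 0.05. Most calls, 85.5%, lay within a 2-fold change, and 258 genes rose and 205 fell by more. The 2 groups did not overlap for 3143 genes in the upward direction (17.7%) and 3261 in the downward direction (18.4%). Among called genes the groups were separate for 1537 of those that rose and 1607 of those that fell. Replicate 1 was the most displaced library: it held the highest of the 3 knockdown values for 812 of the genes that rose and the lowest for 933 of those that fell. Leaving out scramble replicate 2 lowered the calls to 876 higher and 895 lower, and knockdown replicate 3 alone gave 694 higher and 529 lower.

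**Figure D1:**
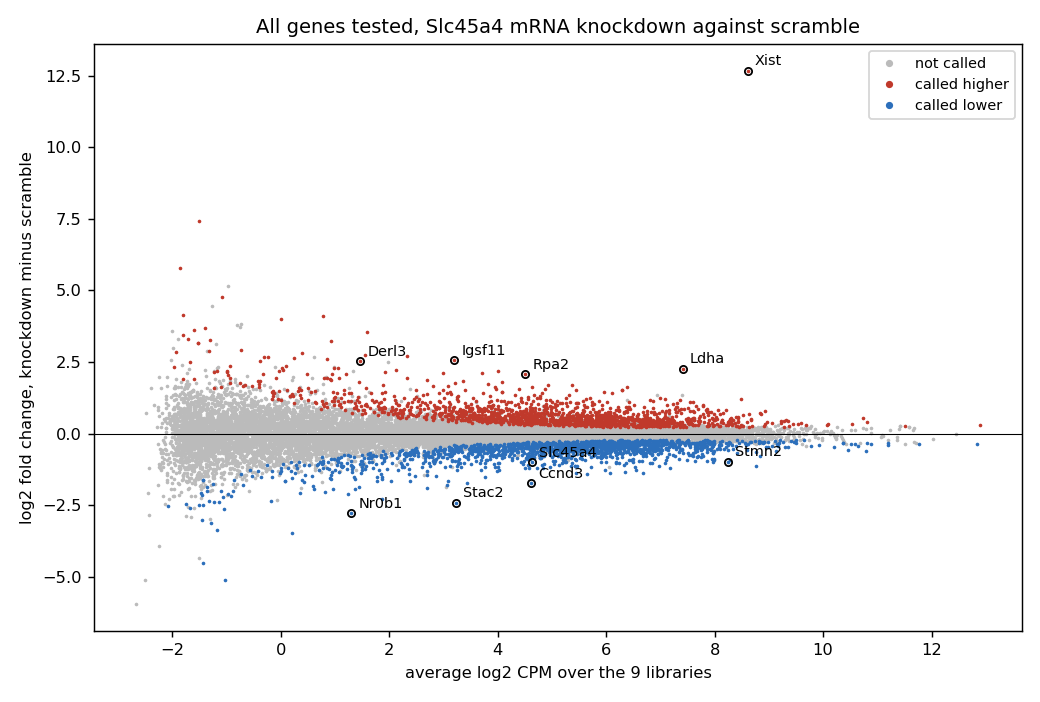
Log2 fold change of the Slc45a4 mRNA knockdown over scramble (vertical axis) against the average log2 CPM over the 9 libraries (horizontal axis), 1 point for each of 17760 genes, red where called higher, blue where called lower and grey where not called. Most coloured points lie within 2-fold of 0, Xist stands alone at the top, and Ldha, Igsf11 and Rpa2 are high among the well-read genes that rose.

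Among the large rises with stable calls were an adhesion molecule, a glycolytic enzyme and a replication protein. Igsf11, an immunoglobulin-superfamily adhesion molecule of synapses, was read at 15.49, 9.17 and 11.9 CPM in the knockdown and 1.91, 2.46 and 1.79 CPM in scramble (2.56 ± 0.21). Ldha, which interconverts pyruvate and lactate, was read at 225, 241 and 169 CPM in the knockdown and 32.6, 48.1 and 50.8 CPM in scramble (2.27 ± 0.17). Rpa2, a subunit of the complex that coats single-stranded DNA, was read at 40.9, 33.98 and 37.1 CPM in the knockdown and 7.84, 7.62 and 11.1 CPM in scramble (2.07 ± 0.14). In each of the 3 genes the lowest knockdown library was more than 3 times the highest scramble library. The processed copy Ldha-ps2 rose as well (2.13 ± 0.25, a stable call), and reads of Ldha and this near-identical copy may be split between them. Mbp, whose locus makes myelin basic protein and the Golli proteins of neurons, was read at 14.3, 15.7 and 14.2 CPM in the knockdown and 2.39, 4.54 and 5.25 CPM in scramble (1.83 ± 0.22). Egln3, an oxygen-dependent prolyl hydroxylase, rose too (1.65 ± 0.16), with all knockdown libraries above 4.17 CPM, the highest scramble value. Derl3, a component of endoplasmic reticulum-associated degradation, was read at 9.01, 5.07 and 5.32 CPM in the knockdown and 1.39, 0.454 and 1.54 CPM in scramble (2.53 ± 0.45). Derl3 was not called with Xist as a covariate (adjusted p = 0.0632), and it was not called with knockdown replicate 3 alone (adjusted p = 0.0560).

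Among the deepest falls with stable calls were a nuclear receptor and an adaptor of calcium channels. Nr0b1, the orphan nuclear receptor DAX1, was read at 0.949, 0.917 and 0.803 CPM in the knockdown and 7.12, 7.16 and 4.20 CPM in scramble (-2.78 ± 0.30). Stac2, an adaptor that binds voltage-gated calcium channels, was read at 1.28, 2.05 and 1.52 CPM in the knockdown and 10.9, 7.91 and 7.32 CPM in scramble (-2.42 ± 0.20). Thsd7a, a membrane protein with thrombospondin repeats, fell by a log2 of 2.28 ± 0.39 and Anxa5, a calcium-dependent phospholipid-binding protein, by 1.90 ± 0.21. All 4 genes had every knockdown library below every scramble library. Zfp580, a zinc finger protein (-1.81 ± 0.18), and Prokr2, a prokineticin receptor (-1.72 ± 0.20), fell as well. Ppp1r3d, a glycogen-targeting subunit of protein phosphatase 1 (chr2:178411206-178414472, minus strand), and its neighbour Fam217b (chr2:178414524-178424428, plus strand) fell together, at -1.95 ± 0.25 and -1.66 ± 0.20. The 2 genes lie on opposite strands and do not overlap in the annotation.

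**Figure D2:**
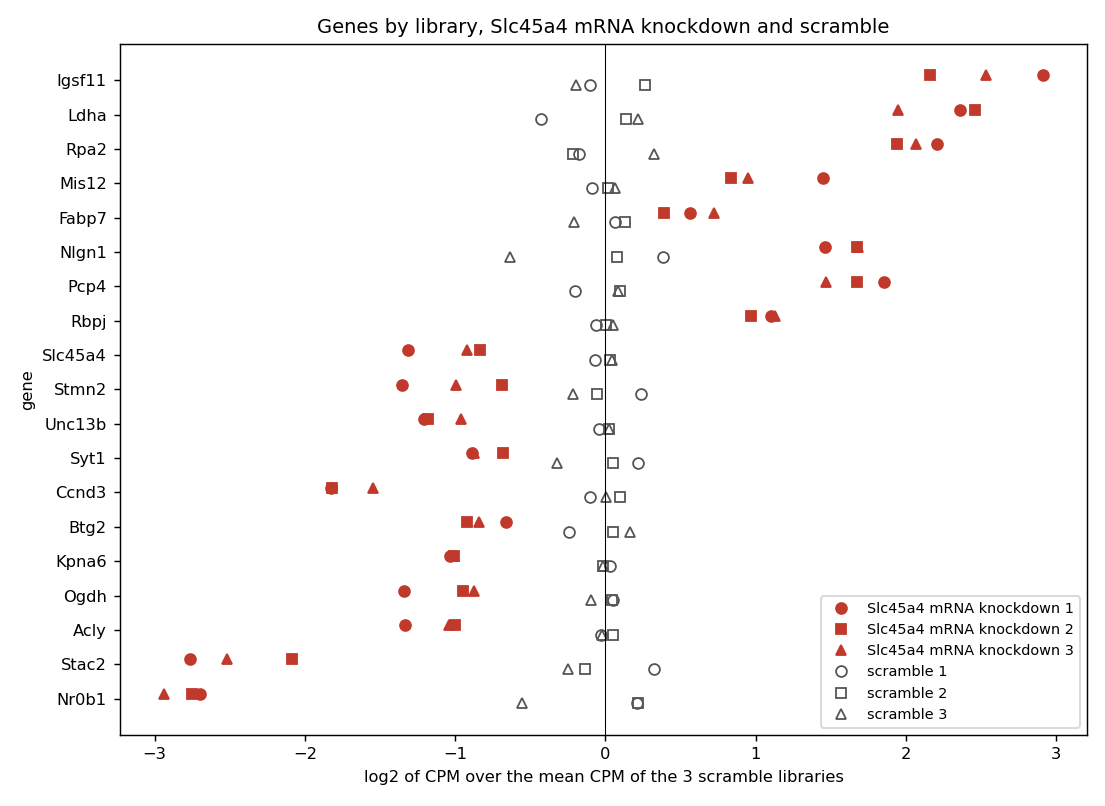
Log2 of each library's CPM over the mean of the 3 scramble libraries (horizontal axis) for 19 genes (vertical axis), with filled red symbols for the 3 knockdown libraries and open grey symbols for the 3 scramble libraries. The red symbols lie on 1 side of the grey ones for every gene drawn, Igsf11, Ldha and Rpa2 lie farthest to the right, and Nr0b1 and Stac2 farthest to the left.

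To describe the response by function, 68 lists of genes were used, in which 1691 distinct symbols were tested. Their counts are set beside the background of 8.92% higher and 9.09% lower, and their medians beside the median of all genes, 0.01. The mean log2 level of the members in the 3 knockdown libraries lay above all scramble libraries in 13 lists, below them in 9, and overlapped in 46. In bulk samples, fewer cells of a type and less RNA per cell cannot be told apart, and this holds for every list named for a cell type.

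**Figure D3:**
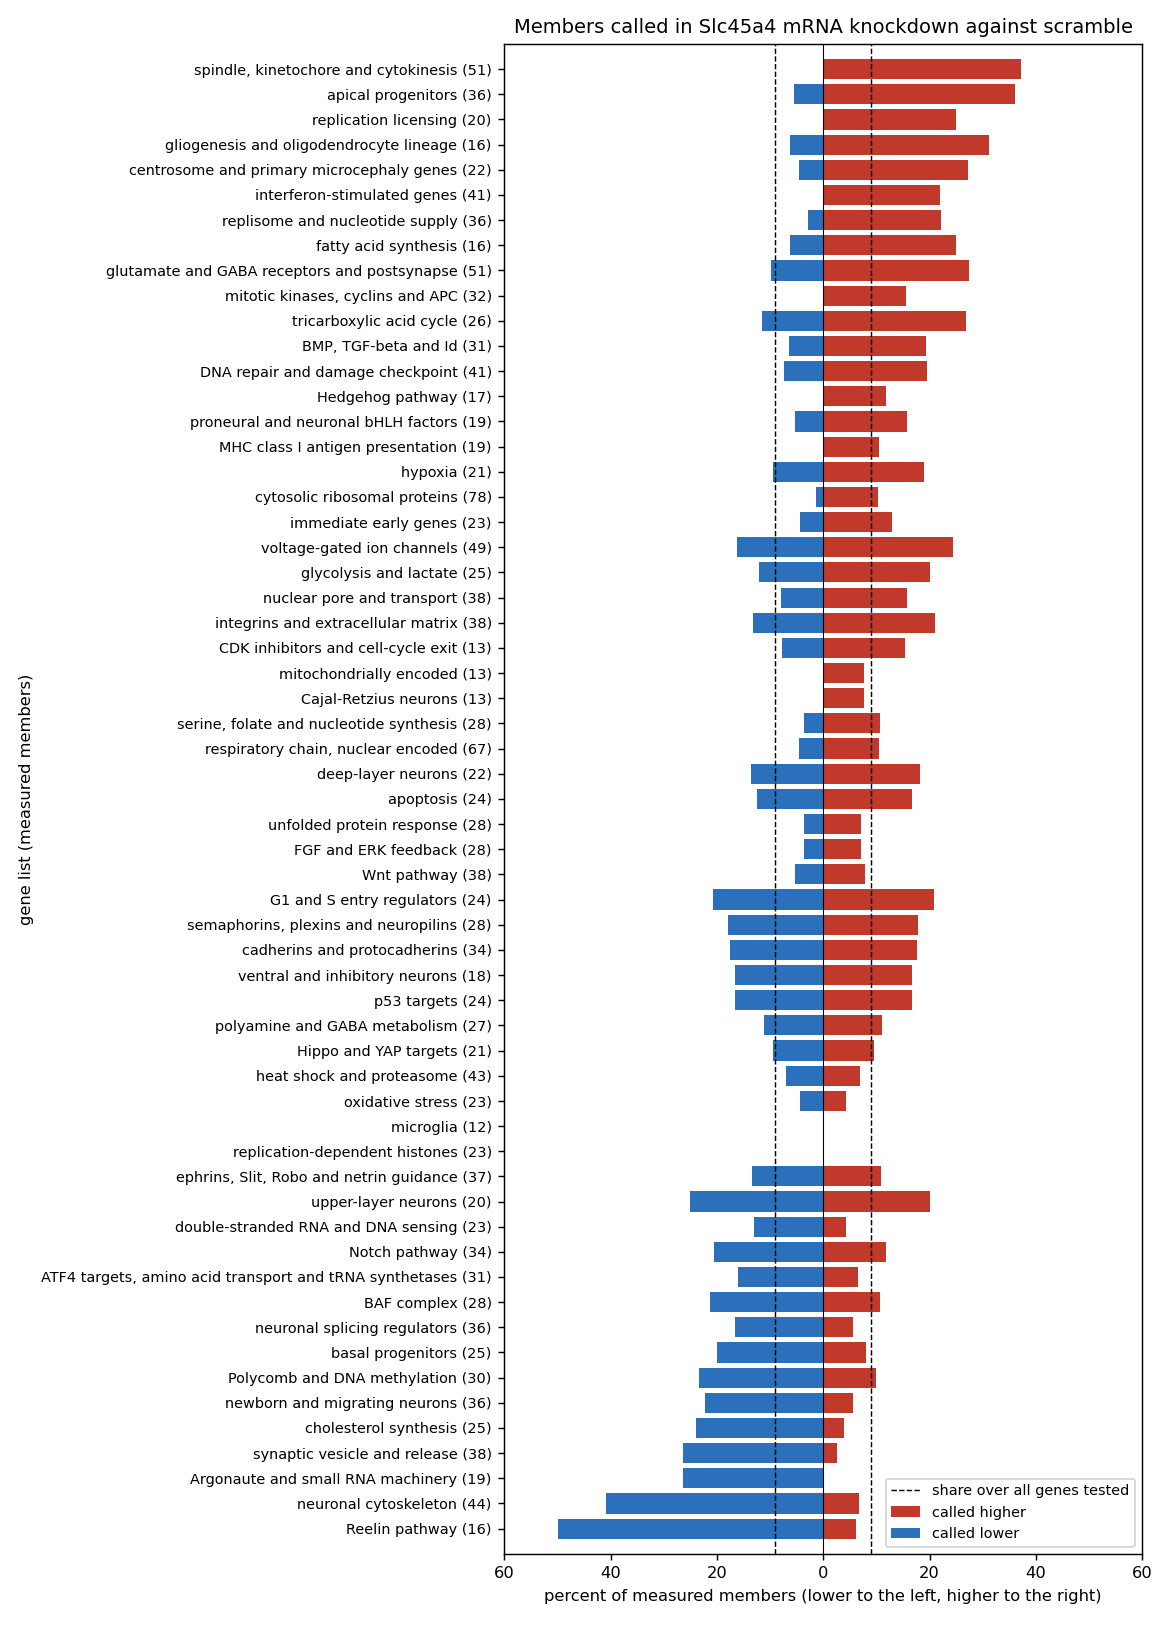
Percent of the measured members of each list that rose (red, to the right) or fell (blue, to the left) in the Slc45a4 mRNA knockdown, for lists with at least 12 measured members (number in brackets), ordered by the difference. Dashed lines mark the shares over all genes, 8.92% and 9.09%, and spindle genes and apical progenitor genes reach farthest right while Reelin pathway and neuronal cytoskeleton genes reach farthest left.

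In the lists of cell division nearly every call was a rise. In mitosis the kinetochore ties chromosomes to the spindle, and cytokinesis then splits the cell, and of the genes for these steps 19 of 51 measured members rose and 0 fell (0 at an unadjusted p under 0.05 and 0 with DESeq2), with a median log2 fold change of 0.53. Mis12, a core kinetochore subunit, was read at 68.7, 44.9 and 48.5 CPM in the knockdown and 23.7, 25.5 and 26.3 CPM in scramble (1.10 ± 0.14), a stable call with replicate 1 highest. Ect2, the exchange factor that starts the cleavage furrow, was read at 75.7, 47.5 and 48.7 CPM in the knockdown and 21.4, 27.5 and 33.7 CPM in scramble (1.05 ± 0.18). Birc5 (survivin), a subunit of the chromosomal passenger complex, was read at 44.9, 29.7 and 26.98 CPM in the knockdown and 12.3, 16.3 and 21.3 CPM in scramble (1.02 ± 0.21). In both genes replicate 1 stood well above replicates 2 and 3, and the lowest knockdown library still exceeded the highest scramble library. The cytokinesis kinesin Kif14 (0.81 ± 0.16) and the inner kinetochore protein Cenph (0.80 ± 0.17) rose too. The mean level of the list, relative to the scramble mean, was 0.90, 0.35 and 0.36 in knockdown replicates 1 to 3 and -0.34, 0.00 and 0.34 in scramble, so replicates 2 and 3 lay just above scramble replicate 3. These genes gave 1 higher and 0 lower with Xist as a covariate (median 0.28), and 3 higher and 0 lower with knockdown replicate 3 alone (median 0.29). The count of members that rose was 9 without knockdown replicate 1, scramble replicate 1 or scramble replicate 2 and 34 without scramble replicate 3. Ect2, Birc5, Kif14 and Cenph were not called with Xist as a covariate (adjusted p from 0.104 to 0.225), and Birc5, Kif14 and Cenph were not called with knockdown replicate 3 alone (adjusted p from 0.0635 to 0.111).

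The genes that copy DNA also held mostly rises. Of licensing genes, which load the replicative helicase on origins, 5 of 20 measured members rose and 0 fell (0 at an unadjusted p under 0.05 and 0 with DESeq2), with a median of 0.31. Gmnn (geminin), which blocks re-licensing, was read at 30.1, 20.7 and 18.1 CPM in the knockdown and 8.85, 11.8 and 13.9 CPM in scramble (0.99 ± 0.20), and the helicase loader Cdc6 at 24.7, 19.2 and 18.6 CPM in the knockdown and 8.13, 11.7 and 15.4 CPM in scramble (0.82 ± 0.19). Both had their highest value in replicate 1 and no overlap between groups. Among replisome genes 8 of 36 measured members rose and 1 fell (median 0.33), with stable rises of Rpa2 and of the clamp loader subunit Rfc4 (1.41 ± 0.16), and a rise of its partner Rfc2 (0.59 ± 0.09). Of mitotic kinases, cyclins and genes of the anaphase-promoting complex, 5 of 32 measured members rose and 0 fell (0 at an unadjusted p under 0.05 and 0 with DESeq2), with a median of 0.32, and of centrosome and primary microcephaly genes 6 of 22 measured members rose and 1 fell. Ninein (Nin), which anchors microtubules at the mother centriole, was read at 111, 137 and 148 CPM in the knockdown and 72.97, 61.3 and 62.6 CPM in scramble (1.01 ± 0.11), and Ankle2, a nuclear envelope protein, rose by a smaller amount (0.55 ± 0.08), both stable. Of the replication-dependent histone genes, which polyA selection recovers poorly, 0 of 23 measured members rose (3 at an unadjusted p under 0.05 and 0 with DESeq2) and 0 fell (0 at an unadjusted p under 0.05 and 0 with DESeq2).

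Counts of members that rose moved with single libraries. They were 3 without knockdown replicate 1 or scramble replicate 2 for licensing, 4 without scramble replicate 2, 5 without knockdown replicate 1 or scramble replicate 1 and 15 without scramble replicate 3 for the replisome, and 1 without scramble replicate 2, 2 without scramble replicate 1, 3 without knockdown replicate 1 and 12 without scramble replicate 3 for mitotic kinases, and of histone genes 1 without scramble replicate 1 and 2 without scramble replicate 3. Falls numbered 0 without knockdown replicate 2, knockdown replicate 3, scramble replicate 2 or scramble replicate 3 for the replisome, 1 without scramble replicate 1 for mitotic kinases and 2 without scramble replicate 1 for centrosome genes. Calls with the Xist covariate, higher and lower, numbered 0 and 0 for licensing, 2 and 0 for the replisome, 0 and 0 for mitotic kinases, 2 and 0 for centrosome genes and 0 and 0 for histone genes. The same counts for knockdown replicate 3 alone were 0 and 0 for licensing, 4 and 0 for the replisome, 0 and 0 for mitotic kinases, 4 and 0 for centrosome genes and 0 and 0 for histone genes. Gmnn, Cdc6 and Rfc2 were not called with Xist as a covariate (adjusted p from 0.0746 to 0.249), and Gmnn and Cdc6 were not called with knockdown replicate 3 alone (adjusted p from 0.138 to 0.177).

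Promoter sequences of 2 of these genes are shown because the motifs of cell-cycle promoters can be seen in them. They are the 250 bases before the annotated start of Ect2 (chr3:27153879-27154128, minus strand) and Cdc6 (chr11:98907901-98908150, plus strand), from RefSeq on GRCm38.p6, written 5′ to 3′ on the gene's strand. Capitals mark TTTGAA, the core of the CHR element, in Ect2, and an E2F motif in Cdc6.
Ect2: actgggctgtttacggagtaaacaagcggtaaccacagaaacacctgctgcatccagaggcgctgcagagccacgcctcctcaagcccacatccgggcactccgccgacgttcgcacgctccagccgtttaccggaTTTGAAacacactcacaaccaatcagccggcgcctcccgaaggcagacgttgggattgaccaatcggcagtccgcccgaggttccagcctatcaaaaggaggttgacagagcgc
Cdc6: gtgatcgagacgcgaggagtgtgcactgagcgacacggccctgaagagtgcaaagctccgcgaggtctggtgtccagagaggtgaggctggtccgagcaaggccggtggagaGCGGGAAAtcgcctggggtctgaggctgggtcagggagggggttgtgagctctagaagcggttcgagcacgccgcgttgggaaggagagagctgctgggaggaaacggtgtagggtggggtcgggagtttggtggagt
Searched on both strands, TTTGAA was found in 12 of 45 spindle gene promoters of this length (26.7%) and in 6 of 25 of the mitotic kinases and cyclins (24%), against 16.3% of 27025 promoters and 10.3% of 11090 promoters of tested genes. An E2F motif, searched as TTTGGCGC, TTTCCCGC, TTTCGCGC or TTTGCCGC, was found in 6 of 18 licensing promoters (33.3%) and 3 of 28 replisome promoters (10.7%), against 1.9% of all promoters and 3.5% of those of tested genes. Of the 17 spindle genes that rose and had a promoter entry, 3 held TTTGAA, and of the 3 such mitotic kinases and cyclins 0 did. An E2F motif was held by 3 of the 4 such licensing genes and by 1 of the 6 such replisome genes. Whether the motifs had a part in the rises was not tested.

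Regulators of the entry into S phase were split. Ccnd3 (cyclin D3), which drives progression through G1 with Cdk4 and Cdk6, was read at 7.06, 7.09 and 8.59 CPM in the knockdown and 23.3, 26.8 and 25.1 CPM in scramble (-1.73 ± 0.12, adjusted p = 2.65e-06). Every knockdown value was under 9 CPM and every scramble value over 23 CPM. Tfdp2, the dimer partner of E2F factors, fell (-0.80 ± 0.10), as did Cdk6 (-0.50 ± 0.09) and Ccne1 (-1.18 ± 0.23), whereas Ccne2 (0.91 ± 0.18) and E2f3 (0.62 ± 0.11) rose. Cyclins E1 and E2 share the role of activating Cdk2 at the start of S phase, and their mRNAs went opposite ways: Ccne1 was read at 4.66, 5.56 and 6.98 CPM in the knockdown and 8.56, 12.1 and 18.2 CPM in scramble, and Ccne2 at 36.2, 22.3 and 24.6 CPM in the knockdown and 12.4, 14.4 and 17.4 CPM in scramble. In all, 5 of 24 measured members rose and 5 fell. Btg2, an antiproliferative gene of neurogenic progenitors, was read at 164, 137 and 145 CPM in the knockdown and 219.6, 269 and 290.4 CPM in scramble and fell (-0.80 ± 0.12), a stable call with non-overlapping groups. The count of G1 and S regulators that rose was 3 without scramble replicate 1. The list gave 0 higher and 2 lower with Xist as a covariate and 2 higher and 2 lower with knockdown replicate 3 alone. Cdk6, Ccne1, Ccne2 and E2f3 were not called with Xist as a covariate (adjusted p from 0.0574 to 0.249), and Cdk6 and Ccne1 were not called with knockdown replicate 3 alone (adjusted p from 0.0590 to 0.145).

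Targets of p53 changed in both directions, 4 of 24 higher and 4 lower. Tigar, a p53-induced phosphatase that lowers glycolytic flux, was read at 16.5, 19.04 and 16.6 CPM in the knockdown and 34.8, 38.1 and 35.6 CPM in scramble (-1.06 ± 0.10). Ccng1 (cyclin G1) was read at 28.2, 17.1 and 14.5 CPM in the knockdown and 41.2, 41.5 and 43.4 CPM in scramble (-1.08 ± 0.19), and the exonuclease gene Aen fell as well (-0.58 ± 0.08), while the kinase gene Plk2 rose (0.67 ± 0.10). All 4 calls were stable. Of apoptosis genes 4 of 24 measured members rose and 3 fell: the apoptosome component Apaf1 (1.08 ± 0.10) and the pore-forming Bak1 (1.32 ± 0.19) rose, and the caspase inhibitor Xiap fell (-0.70 ± 0.09), again stable. Atm, the kinase that signals double-strand breaks, rose (96.1, 86.5 and 105 CPM in the knockdown and 56.8, 53.6 and 62.3 CPM in scramble; 0.73 ± 0.11) and was stable, within a group of repair and checkpoint genes of which 8 of 41 rose and 3 fell. The counts were 1 without knockdown replicate 1 or scramble replicate 1 and 2 without scramble replicate 2 for repair genes that rose, 0 without scramble replicate 3 and 1 without knockdown replicate 2, knockdown replicate 3 or scramble replicate 2 for repair genes that fell, 2 without scramble replicate 2 for p53 targets that rose and 1 without scramble replicate 2 for apoptosis genes that fell. With Xist as a covariate, higher and lower calls numbered 1 and 3 for p53 targets, 2 and 1 for apoptosis genes and 1 and 0 for repair genes. Knockdown replicate 3 alone gave 2 and 3 for p53 targets, 3 and 1 for apoptosis genes and 1 and 1 for repair genes.

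Of the genes of apical progenitors, 13 of 36 measured members rose and 2 fell, with a median of 0.26. Sfrp1, a secreted Wnt antagonist of the ventricular zone, was read at 263, 239 and 268 CPM in the knockdown and 156, 162 and 144 CPM in scramble (0.74 ± 0.08). Fabp7, the brain lipid-binding protein of radial glia, was read at 192, 170.1 and 214 CPM in the knockdown and 136, 142 and 112 CPM in scramble (0.56 ± 0.11), and Ednrb, an endothelin receptor, at 24.2, 17.6 and 23.9 CPM in the knockdown and 12.1, 13.2 and 13.3 CPM in scramble (0.76 ± 0.15). These 3 genes had stable calls with no overlap, and replicate 2 held the lowest knockdown value in each. Hopx (1.01 ± 0.22), the glutamate transporter gene Slc1a3 (0.52 ± 0.12) and Prom1 (0.42 ± 0.09) rose as well. Pax6, the transcription factor of the same cells, was read at 133, 94.6 and 117 CPM in the knockdown and 81.7, 104 and 114 CPM in scramble, with overlapping groups (0.20 ± 0.14, adjusted p = 0.366). The count of rises was 7 without scramble replicate 1 and 8 without knockdown replicate 3, that of falls was 0 without scramble replicate 2 and 1 without knockdown replicate 2 or scramble replicate 3, and the mean level of the list was 0.33, 0.03 and 0.36 in the knockdown against -0.16, 0.07 and 0.10 in scramble, with replicate 2 inside the scramble range. Hopx, Slc1a3 and Prom1 were not called with Xist as a covariate (adjusted p from 0.0795 to 0.277), and Hopx and Prom1 were not called with knockdown replicate 3 alone (adjusted p from 0.0941 to 0.143), and Slc1a3 and Prom1 were not called when a change over 1.2-fold was required (adjusted p from 0.0758 to 0.155). Apical progenitor genes gave 6 higher and 0 lower with Xist as a covariate and 10 higher and 1 lower with knockdown replicate 3 alone.

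Basal progenitor genes did not share a direction, with 2 of 25 higher and 5 lower (median 0.04). Besides Btg2, the stable call in this list was Elavl4, a neuronal RNA-binding protein, read at 200.4, 188 and 190.3 CPM in the knockdown and 266, 256 and 268 CPM in scramble (-0.45 ± 0.07). The bHLH gene Nhlh1 fell (-0.81 ± 0.19), with 42.3, 36.7 and 32.1 CPM in the knockdown against 50.5, 68.1 and 76.3 CPM in scramble. The count of basal progenitor genes that rose was 1 without knockdown replicate 3, 4 without scramble replicate 3 and 5 without knockdown replicate 1. Nhlh1 was not called with Xist as a covariate (adjusted p = 0.0789), and it was not called with knockdown replicate 3 alone (adjusted p = 0.0577). The whole list gave 1 higher and 2 lower with Xist as a covariate and 3 higher and 2 lower with knockdown replicate 3 alone.

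Genes of newborn and migrating neurons and of the neuronal cytoskeleton held more falls than rises. Of the first, 2 of 36 measured members rose and 8 fell (median -0.20), and of the second, 3 of 44 measured members rose and 18 fell (median -0.26). Stmn2, a regulator of microtubule dynamics in growing axons, was read at 172, 274 and 221 CPM in the knockdown and 518, 424 and 378 CPM in scramble (-0.98 ± 0.16). The spectrin gene Sptbn1 was read at 145, 168 and 153 CPM in the knockdown and 240.3, 235 and 222 CPM in scramble (-0.58 ± 0.08), and the secreted guidance cue Sema3c fell by a log2 of 1.04 ± 0.17. These 3 calls were stable, and replicate 1 had the lowest Stmn2 level of the 6 libraries. The netrin receptor gene Unc5d, a marker of multipolar migrating cells, was read at 105, 156 and 177 CPM in the knockdown and 328, 285 and 225 CPM in scramble (-0.94 ± 0.17). The axonal kinesin Kif21b (-0.61 ± 0.09), the light neurofilament Nefl (-1.32 ± 0.25) and doublecortin, Dcx (-0.58 ± 0.10), which stabilises microtubules in migrating neurons, fell too. The small GTPase Rnd3, needed for migration, rose (0.82 ± 0.16). The mean level of the cytoskeleton list was -0.46, -0.16 and -0.25 in knockdown replicates 1 to 3 and 0.08, -0.03 and -0.06 in scramble, so every knockdown library lay below every scramble library. The count of its members that fell was 10 without scramble replicate 2 and 11 without scramble replicate 1, and that of its members that rose was 0 without scramble replicate 2, 1 without knockdown replicate 2, knockdown replicate 3 or scramble replicate 3 and 5 without knockdown replicate 1. Rises of newborn neuron genes numbered 1 without knockdown replicate 2, knockdown replicate 3, scramble replicate 2 or scramble replicate 3 and 4 without knockdown replicate 1. With Xist as a covariate, higher and lower calls numbered 0 and 2 for newborn neuron genes and 0 and 3 for the cytoskeleton. Set alone against scramble, knockdown replicate 3 gave 0 and 4 for newborn neuron genes and 1 and 8 for the cytoskeleton. Unc5d, Kif21b, Nefl, Dcx and Rnd3 were not called with Xist as a covariate (adjusted p from 0.0661 to 0.178), and Unc5d, Dcx and Rnd3 were not called with knockdown replicate 3 alone (adjusted p from 0.0511 to 0.0715).

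Reelin, a protein secreted at the surface of the cortex, guides migrating neurons through the receptors Vldlr and Lrp8 and through integrins. In its pathway 1 of 16 measured members rose and 8 fell, with a median of -0.26. Itgb1, the beta-1 integrin, was read at 138, 135 and 139.7 CPM in the knockdown and 204, 203 and 197 CPM in scramble (-0.55 ± 0.07), and its knockdown values differed little between libraries. The adaptor Crkl (-0.66 ± 0.10) and the alpha-3 integrin Itga3 (-0.95 ± 0.19) fell, and Vldlr was the member that rose (76.7, 69.99 and 71.3 CPM in the knockdown and 51.7, 48.1 and 53.6 CPM in scramble; 0.51 ± 0.08). Itgb1 and Vldlr were stable. The count of members that fell was 3 without scramble replicate 2, 4 without scramble replicate 1 and 5 without knockdown replicate 1, knockdown replicate 2 or scramble replicate 3, and that of members that rose was 2 without knockdown replicate 1 or scramble replicate 1. The pathway gave 1 higher and 1 lower with Xist as a covariate (median -0.19), and 1 higher and 2 lower with knockdown replicate 3 alone (median -0.20). Crkl and Itga3 were not called with Xist as a covariate (adjusted p from 0.0742 to 0.156), and Itga3 was not called with knockdown replicate 3 alone (adjusted p = 0.0951).

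**Figure D4:**
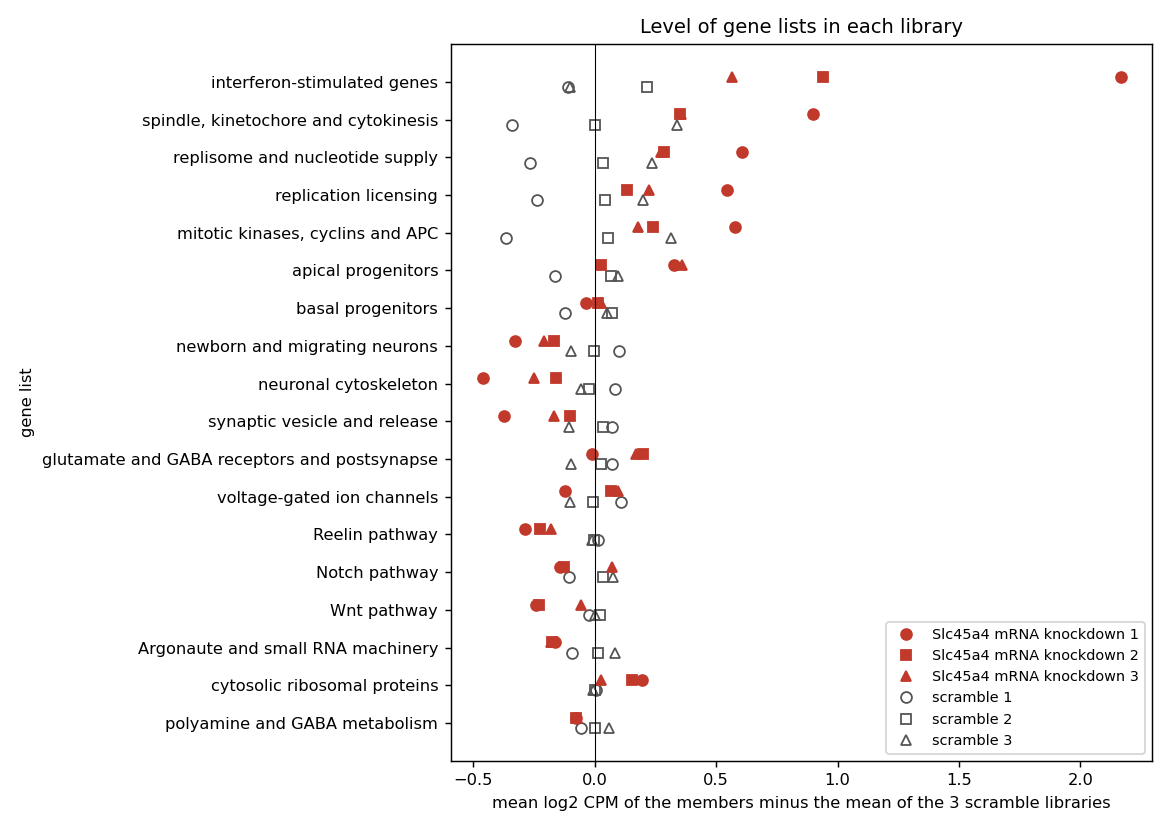
Mean log2 CPM of the members of 18 lists in each library, minus the mean of the 3 scramble libraries (horizontal axis), with filled red symbols for the knockdown and open grey symbols for scramble. Interferon-stimulated genes spread farthest, to 2.17 in knockdown replicate 1, while neuronal cytoskeleton, newborn neuron and Reelin pathway genes have all 3 knockdown libraries below all scramble libraries.

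Synaptic genes are given by side, and in both lists the mean levels of the groups overlapped. On the presynaptic side, 1 of 38 measured members rose and 10 fell of the vesicle and release machinery (median -0.17). Unc13b, which primes vesicles for release, was read at 49.6, 50.7 and 58.96 CPM in the knockdown and 111, 117 and 116 CPM in scramble (-1.11 ± 0.09), the ATPase Nsf, which recycles the fusion complex, at 18.8, 19.3 and 19.9 CPM in the knockdown and 37.1, 35.2 and 31.5 CPM in scramble (-0.84 ± 0.10), and the calcium sensor Syt1 at 32.3, 37.2 and 32.5 CPM in the knockdown and 69.5, 61.9 and 47.7 CPM in scramble (-0.81 ± 0.13). The Unc13b values of the knockdown were all under 60 CPM and those of scramble all over 110 CPM, and all 3 genes had stable calls. The list's level was -0.37, -0.10 and -0.17 in knockdown replicates 1 to 3 and 0.07, 0.03 and -0.10 in scramble, and the count of rises was 0 without knockdown replicate 2, knockdown replicate 3, scramble replicate 1, scramble replicate 2 or scramble replicate 3 and 3 without knockdown replicate 1. Release genes gave 0 higher and 3 lower with Xist as a covariate and 0 higher and 5 lower with knockdown replicate 3 alone.

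On the receptor side, 14 of 51 measured members rose and 5 fell (median 0.22). Nlgn1, a postsynaptic adhesion molecule of excitatory synapses, was read at 31.1, 35.98 and 36.03 CPM in the knockdown and 14.7, 11.9 and 7.25 CPM in scramble (1.62 ± 0.19), and Grin1, the obligatory NMDA receptor subunit, at 6.25, 10.5 and 9.64 CPM in the knockdown and 5.07, 4.02 and 3.64 CPM in scramble (1.06 ± 0.21). Both were stable rises, and Gabrb2, a GABA-A receptor subunit, a stable fall (-0.96 ± 0.16). The kainate receptor subunit Grik2 (0.64 ± 0.11) and the GABA-A subunit Gabra3 (1.10 ± 0.20) rose. The level of this list was -0.01, 0.20 and 0.17 in the knockdown and 0.07, 0.03 and -0.10 in scramble. The counts were 7 without knockdown replicate 3 or scramble replicate 2 and 8 without knockdown replicate 2 or scramble replicate 3 for rises and 2 without knockdown replicate 3 for falls. Receptor genes gave 3 higher and 1 lower with Xist as a covariate and 6 higher and 1 lower with knockdown replicate 3 alone. Grik2 and Gabra3 were not called with Xist as a covariate (adjusted p from 0.0626 to 0.107), and Gabra3 was not called with knockdown replicate 3 alone (adjusted p = 0.0873).

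Voltage-gated ion channels changed in both directions, 12 of 49 higher and 8 lower. The potassium channel Kcna1 was read at 17.2, 22.6 and 23.01 CPM in the knockdown and 11.1, 8.78 and 8.61 CPM in scramble (1.15 ± 0.15) and the R-type calcium channel Cacna1e at 52.5, 40.4 and 39.4 CPM in the knockdown and 17.1, 16.7 and 21.8 CPM in scramble (1.25 ± 0.18). The sodium channel beta subunits diverged: Scn2b was read at 4.07, 2.89 and 2.10 CPM in the knockdown and 9.32, 10.2 and 8.95 CPM in scramble (-1.65 ± 0.22), and Scn3b rose (1.09 ± 0.15). Kcnq3, a subunit of the M-current, rose too (0.97 ± 0.14), and these 5 calls were stable. The counts were 7 without scramble replicate 2 for rises and 5 without scramble replicate 2 for falls. Channel genes gave 4 higher and 1 lower with Xist as a covariate and 5 higher and 5 lower with knockdown replicate 3 alone.

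Markers of cortical layers did not move as blocks. Deep-layer genes had 4 of 22 higher and 3 lower, and upper-layer genes 4 of 20 higher and 5 lower. Fezf2, the factor that specifies subcerebral projection neurons, was read at 145, 149 and 125 CPM in the knockdown and 79.6, 80.4 and 89.5 CPM in scramble (0.75 ± 0.09), and Pcp4, a calmodulin-binding protein of deep-layer cells, at 8.51, 7.53 and 6.54 CPM in the knockdown and 2.06, 2.53 and 2.50 CPM in scramble (1.66 ± 0.18). Ldb2, a cofactor of LIM factors in the same neurons, rose as well (0.85 ± 0.13). On the upper-layer list, Kitl, the ligand of the receptor Kit, was read at 11.2, 6.82 and 7.39 CPM in the knockdown and 21.9, 24.4 and 25.9 CPM in scramble and fell (-1.51 ± 0.20), and so did the homeobox gene Cux2 (138, 184 and 195 CPM in the knockdown and 269, 336 and 269 CPM in scramble; -0.76 ± 0.17). Members that went the opposite way were the ephrin receptor Epha3 (0.74 ± 0.07) and the cadherin Cdh6 (1.02 ± 0.12), both stable like Fezf2, Pcp4 and Kitl. The count of upper-layer genes that fell was 3 without scramble replicate 1 or scramble replicate 2. Ldb2 and Cux2 were not called with Xist as a covariate (adjusted p from 0.0509 to 0.259), and Cux2 was not called with knockdown replicate 3 alone (adjusted p = 0.152). Higher and lower calls with Xist as a covariate numbered 2 and 0 for deep-layer genes and 3 and 1 for upper-layer genes. Knockdown replicate 3 alone gave 3 and 1 for deep-layer genes and 3 and 1 for upper-layer genes.

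In the Notch pathway, which keeps progenitors undifferentiated, 4 of 34 measured members rose and 7 fell (median -0.11). Rbpj, the DNA-binding effector of all Notch receptors, was read at 198, 181 and 203 CPM in the knockdown and 88.8, 93.00 and 96.05 CPM in scramble (1.07 ± 0.08, adjusted p = 2.98e-06), and the ubiquitin ligase Dtx4 at 13.8, 9.79 and 12.8 CPM in the knockdown and 6.98, 5.18 and 6.54 CPM in scramble (0.96 ± 0.16). The Rbpj values of the knockdown were about 2 times those of scramble in each library, and both calls were stable. Its target genes Hey1 and Hey2 fell: Hey1 was read at 33.4, 31.3 and 34.1 CPM in the knockdown and 42.1, 51.7 and 56.8 CPM in scramble (-0.61 ± 0.11), and Hey2, at a low level, was read at 0.614, 0.378 and 0.637 CPM in the knockdown and 2.10, 1.62 and 1.39 CPM in scramble (-1.64 ± 0.34). The related ligase Dtx1 (-0.99 ± 0.17) and the coactivator Maml3 (-0.73 ± 0.16) fell too. Hey1, Hey2, Dtx1 and Maml3 were not called with Xist as a covariate (adjusted p from 0.118 to 0.289), and Hey1, Hey2 and Maml3 were not called with knockdown replicate 3 alone (adjusted p from 0.0652 to 0.158). Notch genes gave 3 higher and 0 lower with Xist as a covariate (median 0.01), and 4 higher and 1 lower with knockdown replicate 3 alone (median -0.01).

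The shares of Wnt and FGF genes that rose or fell were below those of all genes, and BMP genes had a larger share of rises (19.4%, against 8.92%). Of Wnt genes 3 of 38 measured members rose and 2 fell, among them the ligand Wnt7b, read at 144, 192 and 170.1 CPM in the knockdown and 316, 370.1 and 298 CPM in scramble (-0.96 ± 0.12), which was a stable fall with no overlap. The other stable call of that list was the antagonist Sfrp1. Among FGF genes 2 of 28 measured members rose and 1 fell, and the stable rises were 2 inhibitors of the pathway, Spred1 (0.57 ± 0.10) and Il17rd (1.05 ± 0.18). Fgf9, a ligand of the family, was read at 0.0279, 0.0270 and 0.0554 CPM in the knockdown and 1.72, 0.292 and 0.803 CPM in scramble, and each knockdown value was under the level that 3 counts would give (0.0809 to 0.0837 CPM). Fgf9 was not called with Xist as a covariate (adjusted p = 0.0800), and it was not called with knockdown replicate 3 alone (adjusted p = 0.0902). Among BMP and TGF-beta genes 6 of 31 measured members rose and 2 fell, with a stable rise of the receptor Bmpr1b (0.66 ± 0.14). The counts of rises were 1 without knockdown replicate 3, scramble replicate 2 or scramble replicate 3 for Wnt and 2 without scramble replicate 2 for BMP genes, and the falls were 2 without knockdown replicate 2 for FGF and 1 without knockdown replicate 3 or scramble replicate 2 for BMP genes. Calls with the Xist covariate, higher and lower, numbered 2 and 1 for Wnt, 2 and 0 for FGF and 3 and 0 for BMP genes. The same counts for knockdown replicate 3 alone were 3 and 1 for Wnt, 2 and 0 for FGF and 3 and 1 for BMP genes.

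Adhesion and matrix genes had calls in both directions. Of cadherins and protocadherins 6 of 34 measured members rose and 6 fell (median -0.08), and of integrins and matrix genes 8 of 38 measured members rose and 5 fell (median 0.03). The giant cadherin Fat3 was read at 256, 265 and 304 CPM in the knockdown and 162, 151 and 151 CPM in scramble (0.83 ± 0.09), and Fat4, which acts in planar polarity, also rose (0.74 ± 0.08), whereas T-cadherin, Cdh13, fell (-0.63 ± 0.10). Tenascin-R, Tnr, a matrix protein of the nervous system, was read at 17.1, 26.5 and 24.8 CPM in the knockdown and 8.46, 6.97 and 7.84 CPM in scramble (1.56 ± 0.18), and the laminin gamma chain Lamc1 at 40.7, 40.1 and 45.95 CPM in the knockdown and 65.5, 73.2 and 71.2 CPM in scramble (-0.73 ± 0.09). All 5 calls were stable. The count of rises in the matrix list was 5 without knockdown replicate 1 or scramble replicate 3. Of guidance genes, 4 of 37 measured members rose and 5 fell for ephrins, Slits and netrins and 5 of 28 measured members rose and 5 fell for semaphorins and their receptors, with stable falls of the ephrin Efnb2 (-0.77 ± 0.10) and of Sema6d (-0.67 ± 0.12). The counts were 3 without scramble replicate 2 for falls of the first, and 0 without scramble replicate 2, 2 without scramble replicate 1 and 3 without knockdown replicate 2 or knockdown replicate 3 for rises and 2 without scramble replicate 2 and 3 without knockdown replicate 1, knockdown replicate 2, scramble replicate 1 or scramble replicate 3 for falls of the second. Higher and lower calls with Xist as a covariate numbered 3 and 1 for cadherins, 5 and 2 for matrix genes, 1 and 1 for the first guidance list and 0 and 2 for the second. Set alone against scramble, knockdown replicate 3 gave 5 and 3 for cadherins, 5 and 2 for matrix genes, 2 and 1 for the first guidance list and 1 and 2 for the second.

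Chromatin genes included several stable single changes. In the BAF remodelling complex 3 of 28 measured members rose and 6 fell, and the rises were Dpf2 (102, 99.7 and 97.8 CPM in the knockdown and 47.2, 56.9 and 53.3 CPM in scramble; 0.93 ± 0.08), Smarce1 (402, 389.7 and 393 CPM in the knockdown and 244, 243 and 235 CPM in scramble; 0.71 ± 0.07) and Bcl7a (0.67 ± 0.07). Dpf2 belongs to the subunits that differ between the forms of this complex, and all 3 rises were stable. In the Polycomb and DNA methylation list 3 of 30 measured members rose and 7 fell: Rnf2, the ligase that ubiquitinates histone H2A, rose (99.9, 95.2 and 103 CPM in the knockdown and 59.96, 55.8 and 48.4 CPM in scramble; 0.86 ± 0.09), as did the dioxygenase Tet3 (0.63 ± 0.10), and the histone chaperone Rbbp7 fell (-0.56 ± 0.07). The counts were 2 without scramble replicate 2 for BAF falls and 5 without knockdown replicate 2 for Polycomb rises. With Xist as a covariate, higher and lower calls numbered 3 and 1 for BAF and 2 and 2 for Polycomb genes. Knockdown replicate 3 alone gave 3 and 1 for BAF and 2 and 3 for Polycomb genes.

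RNA regulators held more falls than rises among their calls, although the median of the splicing list was 0.07, above that of all genes (0.01). Of neuronal splicing and RNA-stability factors 2 of 36 measured members rose and 6 fell, with stable falls of Elavl1 (81.01, 88.4 and 88.9 CPM in the knockdown and 120.2, 129 and 125 CPM in scramble; -0.54 ± 0.08), Celf4 (-0.58 ± 0.08) and Elavl4. Of the Argonaute and small RNA machinery 0 of 19 measured members rose (0 at an unadjusted p under 0.05 and 0 with DESeq2) and 5 fell (median -0.17). The helicase Ddx17, a partner of Drosha, was read at 495, 529 and 563 CPM in the knockdown and 732, 724 and 718 CPM in scramble (-0.45 ± 0.07), and the silencing factor Tnrc6c at 168, 202 and 217 CPM in the knockdown and 276, 325 and 310.2 CPM in scramble (-0.63 ± 0.11). Their groups did not overlap, and the list's level was -0.17, -0.18 and -0.18 in the knockdown against -0.10, 0.01 and 0.08 in scramble. Hairpin RNAs use this machinery themselves, and all groups received them, as 2 sequences in the knockdown and 1 in scramble. Their load in the cells was not measured, and its part in these falls was not tested. Ddx17 and Tnrc6c were not called with Xist as a covariate (adjusted p from 0.0864 to 0.138), and Tnrc6c was not called with knockdown replicate 3 alone (adjusted p = 0.0580). The count of splicing factors that rose was 4 without knockdown replicate 2. Calls with the Xist covariate, higher and lower, numbered 0 and 3 for splicing factors and 0 and 0 for the small RNA machinery. With knockdown replicate 3 alone they were 1 and 4 for splicing factors and 0 and 2 for the small RNA machinery.

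Nuclear import receptors gave some of the tightest falls. Kpna6 (importin alpha 7) was read at 47.7, 48.6 and 48.5 CPM in the knockdown and 99.6, 96.6 and 96.5 CPM in scramble (-1.02 ± 0.07, adjusted p = 2.65e-06), and its 3 knockdown values lay within 1 CPM of each other. Kpna1 (importin alpha 5) was read at 76.8, 72.1 and 79.4 CPM in the knockdown and 134, 123 and 119.9 CPM in scramble (-0.72 ± 0.07). Nup133, a scaffold of the pore, rose (68.7, 64.8 and 64.8 CPM in the knockdown and 41.6, 42.5 and 41.2 CPM in scramble; 0.66 ± 0.07), and all 3 calls were stable. In the whole list 6 of 38 measured members rose and 3 fell, and the count of rises was 1 without knockdown replicate 1, scramble replicate 1 or scramble replicate 2 and 3 without knockdown replicate 3 or scramble replicate 3. Pore and transport genes gave 1 higher and 2 lower with Xist as a covariate and 1 higher and 2 lower with knockdown replicate 3 alone.

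In carbon metabolism calls went both ways, with more rises than falls. Of glycolysis and lactate genes 5 of 25 measured members rose and 3 fell (median 0.01): besides Ldha, the stable rises were the activator of glycolysis Pfkfb3 (64.96, 93.1 and 89.3 CPM in the knockdown and 51.2, 49.6 and 46.4 CPM in scramble; 0.75 ± 0.13) and the lactate transporter Slc16a1 (32.8, 26.9 and 31.5 CPM in the knockdown and 19.5, 20.03 and 17.3 CPM in scramble; 0.68 ± 0.12). In the tricarboxylic acid cycle 7 of 26 measured members rose (26.9%, against 8.92% of all genes) and 3 fell (median 0.08). The level of this list was 0.07, 0.10 and 0.05 in the knockdown and 0.01, 0.01 and -0.02 in scramble, a small shift with no overlap. Ogdh, the E1 subunit of the oxoglutarate dehydrogenase complex, was read at 33.9, 44.3 and 46.7 CPM in the knockdown and 88.4, 87.98 and 80.2 CPM in scramble (-1.04 ± 0.11), and the mitochondrial isocitrate dehydrogenase Idh2 at 158, 176 and 168 CPM in the knockdown and 103, 104 and 106 CPM in scramble (0.68 ± 0.08). In neither gene did the groups overlap, and both calls were stable. Pdha1, the E1 subunit of pyruvate dehydrogenase, fell (-0.49 ± 0.08). Pdha1 was not called with Xist as a covariate (adjusted p = 0.0677). The counts were 1 without knockdown replicate 3, scramble replicate 2 or scramble replicate 3 for glycolysis falls and 4 without scramble replicate 3 for cycle genes that rose. With Xist as a covariate, higher and lower calls numbered 4 and 0 for glycolysis and 1 and 1 for the cycle. Set alone against scramble, knockdown replicate 3 gave 4 and 1 for glycolysis and 3 and 1 for the cycle.

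Respiratory chain genes showed opposite changes within 1 complex. The complex III subunits Uqcrh and Uqcrq were read at 144, 136 and 124 CPM in the knockdown and 78.7, 70.9 and 66.3 CPM in scramble (0.91 ± 0.09) and at 13.1, 20.1 and 15.9 CPM in the knockdown and 39.8, 34.1 and 36.1 CPM in scramble (-1.16 ± 0.15), both stable. In all 7 of 67 measured members rose and 3 fell, with a median of 0.07. Cytosolic ribosomal protein genes had 8 of 78 members higher and 1 lower (median 0.14). Their mean level was 0.20, 0.15 and 0.03 in knockdown replicates 1 to 3 and 0.01, 0.00 and -0.01 in scramble, and for 34 of them (43.6%) the groups did not overlap upwards, against 17.7% of all genes. Rpl29 was the member that fell (168, 197 and 168 CPM in the knockdown and 274, 294 and 283 CPM in scramble; -0.68 ± 0.10), a stable call. The counts were 4 without scramble replicate 2 for respiratory rises, 1 without knockdown replicate 3 and 5 without knockdown replicate 2 for respiratory falls and 2 without scramble replicate 2, 3 without scramble replicate 3, 4 without knockdown replicate 1 or knockdown replicate 2 and 5 without scramble replicate 1 for ribosomal rises. Respiratory genes gave 1 higher and 2 lower with Xist as a covariate (median -0.03), and 2 higher and 2 lower with knockdown replicate 3 alone (median -0.03). Ribosomal protein genes gave 0 higher and 1 lower with Xist as a covariate (median 0.02), and 2 higher and 1 lower with knockdown replicate 3 alone (median 0.03).

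Lipid synthesis enzymes split as well. Acly, which makes cytosolic acetyl-CoA from citrate, was read at 237, 298 and 289 CPM in the knockdown and 583, 617 and 588 CPM in scramble (-1.12 ± 0.09, adjusted p = 5.94e-06). The fatty acid elongase Elovl5 was read at 50.8, 45.8 and 43.8 CPM in the knockdown and 22.9, 22.2 and 21.8 CPM in scramble (1.07 ± 0.09), and Idi1, the isopentenyl diphosphate isomerase, at 61.1, 49.6 and 45.2 CPM in the knockdown and 15.9, 14.6 and 17.4 CPM in scramble (1.71 ± 0.14). Acly's highest knockdown value was about 0.5 times its lowest scramble value, and Elovl5 and Idi1 had every knockdown value over 40 CPM and every scramble value under 23 CPM. Cyp51, the lanosterol demethylase, fell (80.98, 101 and 87.3 CPM in the knockdown and 157, 148 and 136 CPM in scramble; -0.71 ± 0.10), and these 4 calls were stable. Of cholesterol synthesis genes 1 of 25 measured members rose and 6 fell (median -0.16), and of fatty acid synthesis genes 4 of 16 measured members rose and 1 fell. The counts were 2 without scramble replicate 2 and 3 without knockdown replicate 3, scramble replicate 1 or scramble replicate 3 for cholesterol falls, 2 without knockdown replicate 3, scramble replicate 2 or scramble replicate 3 for fatty acid rises and 2 without knockdown replicate 2 or scramble replicate 1 for fatty acid falls. With Xist as a covariate, higher and lower calls numbered 1 and 3 for cholesterol and 1 and 1 for fatty acid synthesis. The same counts for knockdown replicate 3 alone were 1 and 4 for cholesterol and 1 and 1 for fatty acid synthesis.

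The pathways tied to the transporter itself held few calls. In polyamine and GABA metabolism 3 of 27 measured members rose and 3 fell (median -0.12), shares close to those of all genes. Aldh5a1, which degrades the GABA product succinic semialdehyde, was read at 20.2, 19.2 and 20.02 CPM in the knockdown and 11.1, 7.84 and 11.6 CPM in scramble (0.96 ± 0.15), the one stable call. Arg2, the mitochondrial arginase that supplies ornithine, was read at 5.78, 4.75 and 5.48 CPM in the knockdown and 11.7, 11.5 and 9.76 CPM in scramble (-1.04 ± 0.17), with no overlap. Odc1, the rate-limiting enzyme of polyamine synthesis, chosen for this role after its values were seen, was read at 269, 329.5 and 299 CPM in the knockdown and 335, 302 and 302 CPM in scramble (-0.07 ± 0.09, adjusted p = 0.642). The counts were 1 without knockdown replicate 1, scramble replicate 1 or scramble replicate 2 for rises and 1 without scramble replicate 2 for falls. Arg2 was not called with Xist as a covariate (adjusted p = 0.0648). Polyamine and GABA genes gave 1 higher and 0 lower with Xist as a covariate and 1 higher and 1 lower with knockdown replicate 3 alone.

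Among stress and supply pathways the share of rises was largest for hypoxia genes (19%, against 8.92% of all genes), and the other lists held scattered calls. Of hypoxia genes 4 of 21 measured members rose and 2 fell (median 0.16), with Egln3 as the stable call, and of unfolded protein response genes 2 of 28 measured members rose and 1 fell, with a stable fall of the disulfide isomerase Pdia6 (-0.55 ± 0.09). Of heat shock and proteasome genes 3 of 43 measured members rose and 3 fell, among them a stable fall of the chaperone Hsph1 (-0.50 ± 0.08), and of serine, folate and nucleotide synthesis genes 3 of 28 measured members rose and 1 fell, among them a stable rise of the GMP synthetase Gmps (0.53 ± 0.09). ATF4 targets and amino acid supply genes had 2 of 31 members higher and 5 lower, and oxidative stress genes 1 of 23 higher and 1 lower. Genes of gliogenesis, the program that follows neurogenesis, are a separate list and held mostly rises. Of them 5 of 16 were higher (31.2%) and 1 lower (median 0.38). The list's level was 0.48, 0.30 and 0.75 in the knockdown and 0.04, 0.01 and -0.04 in scramble, with no overlap. Its stable call was Mbp. The counts of rises were 1 without knockdown replicate 1, knockdown replicate 2, scramble replicate 1, scramble replicate 2 or scramble replicate 3 for heat shock and proteasome genes, 2 without scramble replicate 2 for hypoxia genes, 1 without knockdown replicate 1, knockdown replicate 2, scramble replicate 2 or scramble replicate 3 (with falls of 2 without knockdown replicate 3 and 3 without knockdown replicate 1) for unfolded protein response genes and 1 without knockdown replicate 3, 2 without scramble replicate 2 and 3 without knockdown replicate 1, scramble replicate 1 or scramble replicate 3 for gliogenesis genes. Falls numbered 1 without scramble replicate 1 or scramble replicate 2 for hypoxia genes, 3 without knockdown replicate 1, knockdown replicate 3, scramble replicate 2 or scramble replicate 3 for ATF4 targets and 0 without knockdown replicate 2, scramble replicate 1 or scramble replicate 2 for oxidative stress genes, of which rises numbered 2 without scramble replicate 3. Higher and lower calls with Xist as a covariate numbered 1 and 0 for hypoxia, 1 and 1 for unfolded protein response, 0 and 1 for heat shock and proteasome, 2 and 0 for serine, folate and nucleotide synthesis, 1 and 0 for ATF4 targets, 0 and 0 for oxidative stress and 2 and 0 for gliogenesis genes. Knockdown replicate 3 alone gave 2 and 0 for hypoxia, 1 and 1 for unfolded protein response, 1 and 1 for heat shock and proteasome, 2 and 0 for serine, folate and nucleotide synthesis, 2 and 0 for ATF4 targets, 0 and 0 for oxidative stress and 3 and 1 for gliogenesis genes.

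Interferon-stimulated genes had the largest median of the 68 lists, 1.29, and of them 9 of 41 measured members rose and 0 fell (0 at an unadjusted p under 0.05 and 0 with DESeq2), but the values differed strongly between the knockdown libraries. Isg15, a ubiquitin-like modifier, was read at 7.92, 1.38 and 0.775 CPM in the knockdown and 0.191, 0.227 and 0.154 CPM in scramble (4.12 ± 1.24). Irgm1, an immunity-related GTPase, was read at 14.9, 5.53 and 3.43 CPM in the knockdown and 1.43, 2.53 and 1.11 CPM in scramble (2.22 ± 0.59), and Oas1a, a sensor of double-stranded RNA, at 5.19, 0.674 and 0.582 CPM in the knockdown and 0.191, 0.0324 and 0.185 CPM in scramble (3.99 ± 1.15). Replicate 1 was highest in all 3 genes, replicates 2 and 3 were lower but above the scramble values, and scramble held under 0.25 CPM of Isg15 and of Oas1a. Oas1a in scramble replicate 2 was under the level of 3 counts (0.0972 CPM). At these scramble levels Isg15 and Oas1a passed the filter on low counts only through libraries outside scramble. Such members had little room to fall, so the list's median and its lack of falls are not free of the filter. The mean level of the list was 2.17, 0.94 and 0.57 in knockdown replicates 1 to 3 and -0.11, 0.21 and -0.10 in scramble. Irgm1 lost its call without knockdown replicate 1 (adjusted p = 0.0897), scramble replicate 1 (0.0588) or scramble replicate 3 (0.0692). Isg15 and Oas1a lost theirs without knockdown replicate 1 (adjusted p = 0.169 and 0.180) and without any 1 of the 3 scramble libraries, where Isg15 was at 0.0839 to 0.110 and Oas1a at 0.0629 to 0.118. The count of members that rose was 0 without knockdown replicate 1 or scramble replicate 1, 1 without scramble replicate 3 and 4 without scramble replicate 2, it was 1 with limma-voom, and without knockdown replicate 1 the median was 0.56. Neither the Xist covariate nor knockdown replicate 3 alone left a call (0 and 0), with medians of 0.20 and 0.46, and the library with the highest interferon level was also the one with the highest Xist. What embryo sex and the library itself contributed cannot be told apart.

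The promoters of these 3 genes are shown for the interferon-stimulated response element, searched on both strands as GAAA, any 2 bases and GAAA. Among the members that rose, these 3 were picked because their promoters hold the motif, so its presence in all 3 is no result. They are the 250 bases before the start from RefSeq (GRCm38.p6), for Irgm1 chr11:48871421-48871670, minus strand, for Oas1a chr5:120907526-120907775, minus strand and for Isg15 chr4:156200819-156201068, minus strand, 5′ to 3′ on the gene's strand, with capitals for the motif and its overlapping copies.
Irgm1: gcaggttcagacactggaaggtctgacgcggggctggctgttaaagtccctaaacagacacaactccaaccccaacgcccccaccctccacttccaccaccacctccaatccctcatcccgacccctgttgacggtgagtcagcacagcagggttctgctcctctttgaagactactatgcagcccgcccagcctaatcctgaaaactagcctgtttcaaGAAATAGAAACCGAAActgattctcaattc
Oas1a: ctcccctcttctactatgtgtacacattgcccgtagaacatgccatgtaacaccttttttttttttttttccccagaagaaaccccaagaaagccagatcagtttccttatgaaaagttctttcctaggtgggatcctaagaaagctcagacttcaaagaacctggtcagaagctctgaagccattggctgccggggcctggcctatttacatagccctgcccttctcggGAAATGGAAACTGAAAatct
Isg15: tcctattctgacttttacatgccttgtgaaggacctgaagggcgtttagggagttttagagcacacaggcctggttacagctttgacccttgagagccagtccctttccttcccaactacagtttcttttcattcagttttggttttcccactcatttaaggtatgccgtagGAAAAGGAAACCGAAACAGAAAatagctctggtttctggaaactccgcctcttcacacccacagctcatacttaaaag
The motif was found in 13 of 32 promoters of the list (40.6%), against 3.0% of 27025 promoters and 2.4% of 11090 promoters of tested genes. Of 8 members that rose and had a promoter entry, 3 held it.

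Neighbouring immune pathways held few calls. Of genes that sense double-stranded RNA and DNA, 1 of 23 measured members rose and 3 fell, with the RNA-editing enzyme Adarb1 (-0.54 ± 0.13) among the falls. In MHC class I presentation 2 of 19 measured members rose and 0 fell (1 at an unadjusted p under 0.05 and 1 with DESeq2), with a median of 0.90. B2m, the invariant light chain, was read at 27.3, 43.99 and 10.8 CPM in the knockdown and 5.88, 7.65 and 4.69 CPM in scramble, highest in replicates 1 and 2 (2.17 ± 0.69). The counts were 0 without scramble replicate 2 for falls and 0 without knockdown replicate 1, scramble replicate 1 or scramble replicate 3 and 2 without knockdown replicate 2 or knockdown replicate 3 for rises of the sensing genes, and 0 without knockdown replicate 1, knockdown replicate 2, scramble replicate 1, scramble replicate 2 or scramble replicate 3 and 4 without knockdown replicate 3 for rises of the MHC genes. With Xist as a covariate, higher and lower calls numbered 0 and 0 for sensing genes and 0 and 0 for MHC genes. With knockdown replicate 3 alone they were 0 and 0 for sensing genes and 0 and 0 for MHC genes. Adarb1 and B2m were not called with Xist as a covariate (adjusted p from 0.449 to 0.776), and the same genes were not called with knockdown replicate 3 alone (adjusted p from 0.205 to 0.656), and the same genes were not called when a change over 1.2-fold was required (adjusted p from 0.0904 to 0.0961). Without scramble replicate 2, Adarb1 had an adjusted p of 0.0711. B2m was called with all 6 libraries and without knockdown replicate 3, and its adjusted p was 0.0700 to 0.148 without 1 of the other libraries. In the list of X-linked genes that escape inactivation, 4 of 8 measured members rose and 0 fell (0 at an unadjusted p under 0.05). Kdm5c did not pass edgeR's test (log2 fold change -0.04, adjusted p = 0.820). Eif2s3x followed Xist in part. It was read at 389, 304 and 254 CPM in the knockdown and 207, 196 and 192 CPM in scramble (0.67 ± 0.12). Knockdown replicate 3, which lacks Xist, was still above all scramble libraries. Eif2s3x was not called with Xist as a covariate (adjusted p = 0.207).

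Markers of microglia and of vessel, meningeal and blood cells were low. None of the measured markers of microglia (12 measured), endothelial cells (6), pericytes (5), meningeal fibroblasts (2) or erythroid cells (6) passed edgeR's test. At an unadjusted p under 0.05 the higher and lower markers numbered 1 and 0 for microglia, 1 and 1 for endothelial cells, 0 and 0 for pericytes, 0 and 0 for fibroblasts and 0 and 2 for erythroid cells, and DESeq2 called 0. Summed microglial markers were at 13.48 to 19.4 CPM in the knockdown and 14.02 to 15.3 CPM in scramble, and erythroid markers at 6.77 to 6.84 CPM against 9.66 to 15.3 CPM. Summed endothelial markers overlapped, at 29.4 to 32.9 CPM in the knockdown and 28.5 to 34.5 CPM in scramble. Of these markers, Cldn5 and Cdh5 did not pass the filter on low counts. They were at 0 or 0.0279 CPM in the knockdown and at 0.0324 to 0.861 CPM in scramble. Summed choroid plexus and cortical hem markers were at 36.2 to 45.2 CPM against 21.5 to 27.3 CPM, with Ttr, the defining choroid gene, at no more than 0.772 CPM in any library. Of these markers 1 of 4 measured rose and 0 fell, with 0 and 0 under the Xist covariate. Summed markers of ventral and inhibitory neurons were at 565 to 604 CPM in the knockdown and 714 to 749 CPM in scramble. Of these 3 of 18 measured rose and 3 fell, with 0 and 1 under the Xist covariate. Their part in the results was not tested.

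Set directly against the circSlc45a4 knockdown, a fit that does not use the scramble libraries as a reference, 2187 genes were higher in the Slc45a4 mRNA knockdown (12.3%) and 2445 lower (13.8%). No alternative setting was run for this comparison, so its calls were checked neither with the Xist covariate nor with libraries left out. What embryo sex or single libraries contributed to it was not tested. Slc45a4 was lower (-0.62 ± 0.12, adjusted p = 0.00227), at 25.4, 25.3 and 24.7 CPM in the circSlc45a4 knockdown. Division genes differed between the knockdowns: 43 of 51 spindle, kinetochore and cytokinesis genes were higher and 0 lower, as were 31 of 36 replisome genes with 0 lower and 15 of 20 licensing genes with 0 lower. Against scramble, the medians of these lists were 0.53, 0.33 and 0.31 in the Slc45a4 mRNA knockdown and -0.24, -0.41 and -0.36 in the circSlc45a4 knockdown, which share the scramble libraries. Apical progenitor genes went the other way, with 3 of 36 higher and 15 lower than in the circSlc45a4 knockdown, as did gliogenesis genes with 1 of 16 higher and 7 lower. Against scramble, their medians were 0.26 and 0.38 in the Slc45a4 mRNA knockdown and 0.60 and 0.86 in the circSlc45a4 knockdown. Single genes also parted. Ccnd3 was read at 44.00, 40.1 and 36.8 CPM in the circSlc45a4 knockdown, above every library of the other groups (direct log2 difference -2.41 ± 0.12, adjusted p = 8.91e-08), and Stac2 at 18.9, 17.9 and 16.2 CPM (-3.44 ± 0.20, adjusted p = 4.16e-07). Itgb1 (-0.91 ± 0.07, adjusted p = 2.67e-06) and Ogdh (-1.24 ± 0.11, adjusted p = 7.59e-06) were lower than in the circSlc45a4 knockdown, and Idh2 was higher (1.03 ± 0.08, adjusted p = 5.18e-06). For Igsf11 (-0.08 ± 0.19, adjusted p = 0.798) and Rbpj (0.04 ± 0.07, adjusted p = 0.740) the difference between the knockdowns did not pass the test, and their values against scramble were 2.56 and 2.64 for Igsf11 and 1.07 and 1.03 for Rbpj.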

How the data were processed

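The deposited table holds raw read counts per Ensembl gene for 9 libraries, made by the authors from polyA-selected RNA (Illumina TruSeq, per the labels' protocols). Per the submitters' processing notes, STAR 2.4.2a, DESeq2, bcl2fastq 2.17.1.14 and the build mm10 were used, with no roles stated. Neither the counter nor its strand setting is stated, so reads of overlapping and antisense genes cannot be told apart, and reads carry no molecular identifiers, so depth limits cover counting error only. Symbols were matched for 53274 of 53379 gene IDs.

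Counts were filtered with filterByExpr (minimum count 10), scaled by the TMM method and fitted over all 9 libraries with 1 term per group in edgeR 4.0.16 (R 4.3.3). The quasi-likelihood test was used, with Benjamini-Hochberg adjustment over 17760 genes and a threshold of 0.05. CPM are the deposited counts per 1000000 of each library's total over the filtered genes, multiplied by its TMM factor. Limma 3.58.1 and DESeq2 1.42.0 served as alternatives.

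The members and the gene lists were chosen with earlier results of these data known. Named genes are Slc45a4, the 12 largest rises and falls with separate groups and an average log2 CPM of at least 1, the 6 best-supported members of every list by p, and every member of lists with at most 12 measured. Genes with a printed promoter were picked from the called members whose promoter holds the motif searched for. Lists are described by counts and medians, with no test. The shRNA sequences were not used here. Some list members are not reported by name here.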

Additional observations from a re-analysis of the deposited data

How the results depend on the processing

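Of 3200 calls, 1571 (49.1%) held in all 6 fits that left out 1 library and 722 (22.6%) with the Xist level as a covariate. Against 1585 higher and 1615 lower, the Xist covariate gave 453 and 285, a minimum change of 1.2-fold 606 and 591, and knockdown replicate 3 alone, a setting chosen after seeing the data in which the single library is assumed to vary like the others, 694 and 529. The cause of the drop with the Xist covariate and with replicate 3 alone was not tested; the latter uses fewer libraries. Leaving out 1 library gave 876 to 1397 higher and 895 to 1387 lower, with both minima without scramble replicate 2. DESeq2 gave 1883 and 2024, and limma-voom 1417 and 1565. The split between higher and lower was 61.4% higher with the Xist covariate and 49.5% in the test as reported. Of the genes named by the rule, none that was called changed sign in an alternative, and some that were not called did. Slc45a4 kept its direction and its call in every alternative, from -0.88 to -1.11, of which -1.11 was without knockdown replicate 2 and -0.88 without knockdown replicate 1.

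Replicate numbers did not pair the samples: same-numbered knockdown and scramble libraries had correlations of their deviations of -0.141, 0.022 and -0.089. A fit with the replicate number as a block gave 1334 higher and 1379 lower. Genes with knockdown or scramble values under 0.0809 to 0.143 CPM, the level of 3 counts in the 6 libraries, were at the limit of the depth.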
